A study of Homo sapiens with 14 samples.

Results

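The 10 genes of the WNT pathway described here were the ligands WNT5A, WNT5B, and WNT7B, the receptors FZD2, FZD7, and FZD8, the co-receptor LRP6, the secreted antagonist DKK1 with its family member DKK3, and the feedback inhibitor AXIN2. They were taken by gene symbol from a table of 19410 genes, and each of the 10 symbols was found. RNA came from MDA-MB-231 cells, an established triple-negative breast cancer line of mesenchymal character, untreated and grown in DMEM with fetal bovine serum. The 7 conditions were parental cells, the lines SAP30-KO1 and SAP30-KO2, the lines SIN3A+SIN3B-DKO1 and SIN3A+SIN3B-DKO2, and 2 MLL1-KO lines, MLL1-KO1 and MLL1-KO2. Each condition had 2 libraries, 14 in all. SAP30 is a subunit of the SIN3 histone deacetylase complex, SIN3A and SIN3B are its scaffolds, and MLL1 (KMT2A) is a histone H3 lysine 4 methyltransferase. According to the study's methods, each line was made with CRISPR/Cas9 guides and puromycin, and several knockout cells were grown and mixed, so a line is a pool of clones. All 6 lines went through editing and selection and parental cells did not, so in comparisons with parental cells these steps and the loss of the gene cannot be told apart. Nothing in the labels says that the 2 libraries of a condition came from separate cultures, so the p-values measure the spread between libraries, which may be technical.

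WNT ligands are secreted lipid-modified proteins that bind the cysteine-rich domain of Frizzled (FZD) receptors on the cell surface. When LRP5 or LRP6 joins the complex, the destruction complex that AXIN proteins scaffold is inhibited, beta-catenin accumulates, and TCF/LEF factors activate targets such as AXIN2. DKK1 blocks this branch by binding LRP5 and LRP6, a role that KREMEN receptors assist. WNT5A and WNT5B act largely through branches that do not need beta-catenin, with receptors such as ROR1, and are known from the motility of mesenchymal breast cancer cells.

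The deposited values behave as TPM, a level per length of transcript in which each library sums to 1000000, so levels can be compared between genes but differences in total RNA per cell cannot be seen. Because RNA was pooled from many cells, fewer cells expressing a gene and less RNA per cell cannot be told apart. Recovered read totals were 18415036 to 23162682 per library, with a median of 21648530. SAP30 RNA was 78.9 and 82.8 TPM in parental cells and 2.75 to 4.96 TPM in the SAP30-KO libraries. MLL1, listed as MLL, was 49.0 and 56.7 TPM in parental cells, 15.8 to 27.7 TPM in the MLL1-KO libraries, and 23.0 to 35.4 TPM in the SAP30-KO libraries. SIN3B was 43.5 to 50.2 TPM in the SIN3A+SIN3B-DKO libraries against 75.1 and 77.4 TPM in parental cells, but SIN3A RNA was higher there, at 55.1 to 62.5 TPM against 43.1 and 45.4 TPM. RNA levels therefore do not check the SIN3A part of that label, and these lines are named as labelled. The line's mesenchymal marker VIM was at 5741 to 8805 TPM in every library, ESR1 and PGR reached at most 0.191 and 0.139 TPM, CDH1 reached at most 1.25 TPM, and the epithelial marker EPCAM was at 5.33 to 19.2 TPM. Of the markers of other cell types, PTPRC, CD3E, CDH5, and VWF stayed at or below 0.603 TPM, and PECAM1 was at 1.55 to 3.98 TPM.

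The stretch of 250 bases before a RefSeq start is shown for WNT5A, WNT5B, FZD8, and DKK1. These are the members that moved most and for which a promoter sequence was matched (4 of 10 matched). For each gene the first start listed was used, and other starts were not examined. This start was not checked against the gene intervals given below on GRCh37 and may lie inside the gene. The stretches are read on the gene's strand from RefSeq, build GRCh38.p14. Capitals mark each CpG, the dinucleotide that the CXXC domain of MLL1 is known to bind when unmethylated. The intervals are chr3:55487307-55487556 on the minus strand for WNT5A, chr12:1616806-1617055 on the plus strand for WNT5B, chr10:35642297-35642546 on the minus strand for FZD8, and chr10:52314031-52314280 on the plus strand for DKK1.
WNT5A: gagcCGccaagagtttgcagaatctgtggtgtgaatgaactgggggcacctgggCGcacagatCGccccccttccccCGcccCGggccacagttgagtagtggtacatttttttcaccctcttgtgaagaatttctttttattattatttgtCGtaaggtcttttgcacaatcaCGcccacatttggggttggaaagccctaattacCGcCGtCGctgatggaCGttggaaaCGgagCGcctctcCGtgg
WNT5B: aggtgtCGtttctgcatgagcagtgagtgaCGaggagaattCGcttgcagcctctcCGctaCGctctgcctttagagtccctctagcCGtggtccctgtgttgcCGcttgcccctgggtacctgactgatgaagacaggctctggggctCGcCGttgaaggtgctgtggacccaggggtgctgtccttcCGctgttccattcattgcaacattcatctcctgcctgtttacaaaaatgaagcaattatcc
FZD8: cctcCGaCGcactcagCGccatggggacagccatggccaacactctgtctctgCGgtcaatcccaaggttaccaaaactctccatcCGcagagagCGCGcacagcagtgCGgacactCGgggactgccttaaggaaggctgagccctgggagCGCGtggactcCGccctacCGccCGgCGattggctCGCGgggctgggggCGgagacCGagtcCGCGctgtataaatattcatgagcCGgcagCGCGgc
DKK1: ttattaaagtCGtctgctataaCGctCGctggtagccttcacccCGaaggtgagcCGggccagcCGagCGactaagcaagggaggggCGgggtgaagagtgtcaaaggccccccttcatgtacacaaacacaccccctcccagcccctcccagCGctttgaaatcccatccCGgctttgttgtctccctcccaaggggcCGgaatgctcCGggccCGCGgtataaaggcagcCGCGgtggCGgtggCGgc
The FZD8 stretch held 24 CpG, DKK1 18, WNT5A 14, and WNT5B 10, against a median of 11 (quartiles 3 and 23) over 35116 promoters of the same length. The TATA motif TATAAA was searched on both strands and lay 29 bases before the start of FZD8 and 30 bases before the start of DKK1 on the gene's strand, and 10.7% of all promoters held it. The TCF/LEF core CTTTGA was found in DKK1 only, with its first base 95 bases before the start on the gene's strand and, as TCAAAG on the opposite strand, 149 bases before it, and 11.2% of all promoters held it. These matches describe the letters of a reference sequence and say nothing of binding in these cells.

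A gene was called different when limma gave a Benjamini-Hochberg adjusted p under 0.05 over all 13540 genes tested and the change was at least 1.5-fold. Fold changes are on the log2(TPM + 0.5) scale with their standard errors (SE), and this scale understates the change of genes at low levels. All 10 members passed the filter on low values. In SAP30-KO1, 2 members were higher than in parental cells and 2 lower, where 15.7% of all genes tested were called, 7.8% higher and 7.86% lower. SAP30-KO2 gave the same counts, 2 higher and 2 lower, against 15.6% of all genes, 7.44% higher and 8.12% lower. SIN3A+SIN3B-DKO1 had 2 higher and 1 lower, against 16.4% of all genes, 7.76% higher and 8.66% lower. SIN3A+SIN3B-DKO2 had 2 higher and 0 lower, against 13.6% of all genes, 6% higher and 7.56% lower. In that line 4 members had a lower level at an unadjusted p under 0.05 in limma, and voom called 0 lower. MLL1-KO1 had 3 higher and 3 lower, against 23.2% of all genes, 6.89% higher and 16.3% lower. MLL1-KO2 had 3 higher and 4 lower, against 25.2% of all genes, 10.2% higher and 14.9% lower. The members moved in both directions, so their median change stayed between -0.09 and 0.27 in the 6 lines, against medians over all genes tested of -0.09 to 0.03. All lines were compared with the same 2 parental libraries.

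**Figure D1:**
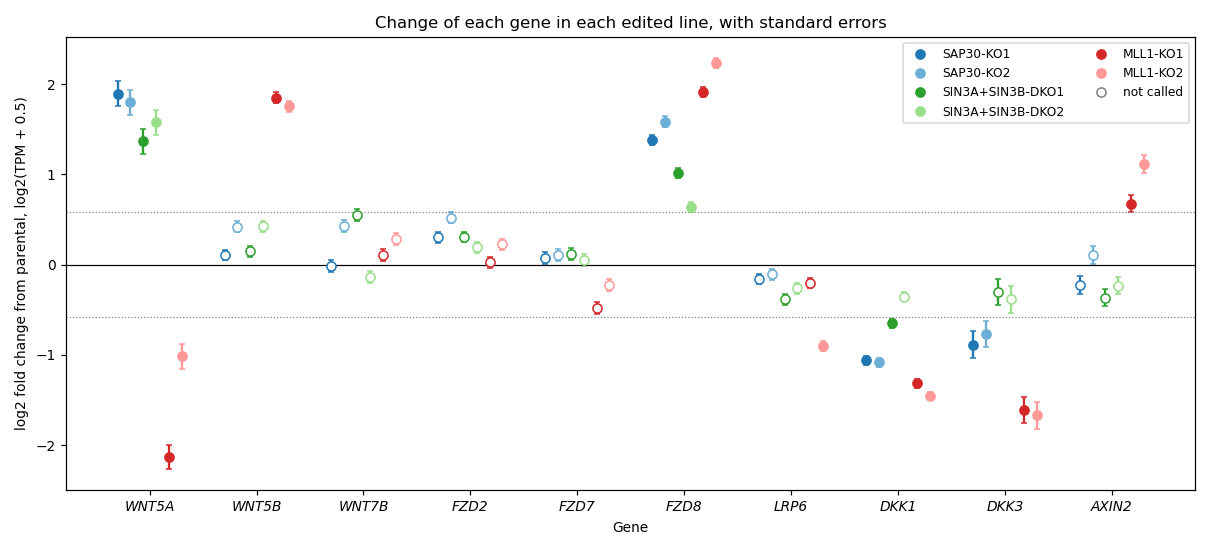
Log2 fold change from parental cells (vertical axis, log2 of TPM + 0.5) of the 10 genes in the 6 edited lines, with bars of 1 SE and dotted lines at 1.5-fold; filled points were called and open points were not. WNT5A rose in the SAP30-KO and SIN3A+SIN3B-DKO lines and fell in the MLL1-KO lines, FZD8 rose in all 6 lines, and DKK1 was lower in all 6, with the call missing in SIN3A+SIN3B-DKO2.

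Among the ligands, WNT5A moved in opposite directions: its mean TPM was 4.22 and 3.93 times the parental mean in SAP30-KO1 and SAP30-KO2, 2.86 and 3.34 times in the SIN3A+SIN3B-DKO lines, and 0.087 and 0.406 times in MLL1-KO1 and MLL1-KO2. WNT5B, its close paralog, rose in the MLL1-KO lines, and WNT7B passed the threshold in no line. WNT5A lies at chr3:55499743-55524567 (minus strand, GRCh37), WNT5B at chr12:1639057-1756378 (plus strand), and WNT7B at chr22:46316246-46373042 (minus strand).

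WNT5A RNA was low in parental cells, at 2.92 and 2.54 TPM (131 and 111 reads). It was 12.04 and 10.96 TPM in SAP30-KO1, 11.2 and 10.2 TPM in SAP30-KO2, 8.05 and 7.55 TPM in SIN3A+SIN3B-DKO1, and 8.62 and 9.62 TPM in SIN3A+SIN3B-DKO2. It was 0.275 and 0.199 TPM in MLL1-KO1 (14 and 10 reads) and 0.898 and 1.32 TPM in MLL1-KO2 (38 and 59 reads). The 8 libraries of the SAP30-KO and SIN3A+SIN3B-DKO lines were all above both parental libraries, and the 4 MLL1-KO libraries were all below them. The log2 changes were 1.90 and 1.80 in the SAP30-KO lines, 1.36 and 1.58 in the SIN3A+SIN3B-DKO lines, and -2.13 and -1.02 in the MLL1-KO lines (SE 0.14 each), with adjusted p-values between 1.96e-07 and 6.37e-05. The reads behind the MLL1-KO1 value are few, and its size depends on the scale: it was -3.07 with 0.1 added to the TPM, -1.59 with 1 added, and -3.42 when the recovered reads were tested with voom, all called. In the order of levels, SAP30-KO1, SAP30-KO2, SIN3A+SIN3B-DKO2, and SIN3A+SIN3B-DKO1 were not shown to differ from their neighbours (adjusted p = 0.786, 0.239, and 0.336), and each step from there through parental and MLL1-KO2 down to MLL1-KO1 was called.

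WNT5B was at 18.4 and 18.3 TPM in parental cells, a level above that of WNT5A. It was 67.1 and 67.4 TPM in MLL1-KO1 and 64.6 and 61.4 TPM in MLL1-KO2, and between 18.9 and 25.3 TPM in the other 8 edited libraries. The 4 MLL1-KO libraries stood apart from the other 10. The log2 changes were 1.85 (SE 0.06, adjusted p = 1.08e-09) in MLL1-KO1 and 1.75 (SE 0.06, adjusted p = 1.1e-09) in MLL1-KO2. The 51 genes around WNT5B on chromosome 12 had a median change of 0.44 in MLL1-KO1 and -0.05 in MLL1-KO2. In SAP30-KO2 and SIN3A+SIN3B-DKO2 WNT5B was 1.34-fold the parental level in each, under the 1.5-fold minimum.

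WNT7B, a ligand known from epithelial development and tumor stroma, was the ligand with the highest RNA level in parental cells, at 25.9 and 24.0 TPM. It was 37.5 and 35.9 TPM in SIN3A+SIN3B-DKO1, 35.5 and 32.2 TPM in SAP30-KO2, and 22.5 to 30.9 TPM in the other 8 edited libraries. The largest change from parental cells was 0.55 (SE 0.07, adjusted p = 5.07e-05) in SIN3A+SIN3B-DKO1, a ratio of 1.46 that missed the fold minimum, and without parental replicate 1 it was 0.60 and was called. No 2 neighbours in its order of levels were shown to differ (adjusted p between 0.0535 and 0.884).

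**Figure D2:**
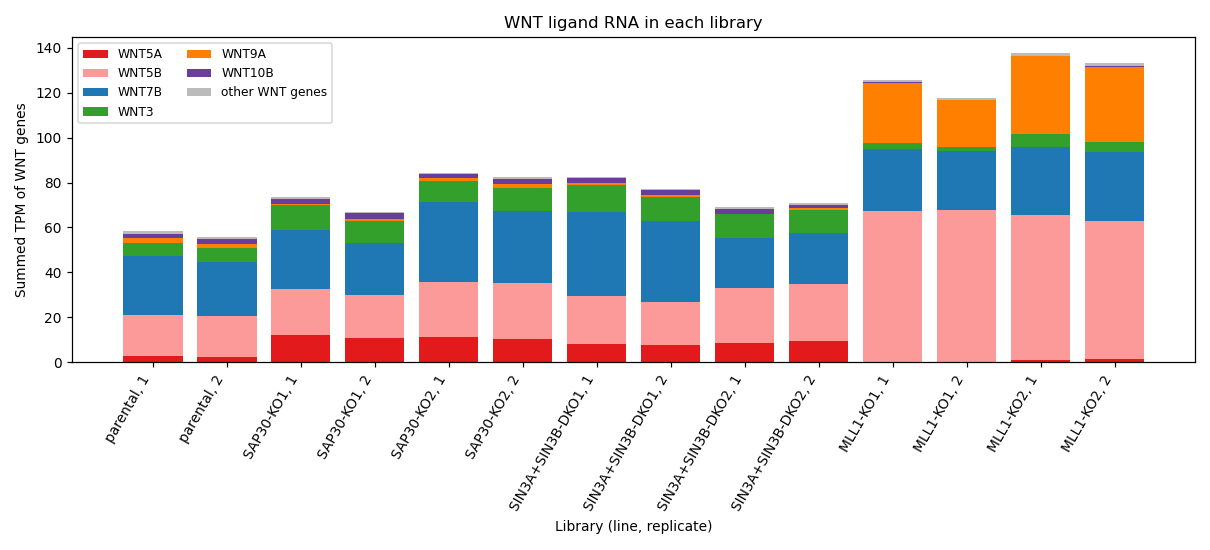
Summed TPM of the 17 WNT genes in the table (vertical axis, from 0) in each of the 14 libraries, split by gene. The total was 55.6 and 58.5 TPM in parental cells and 117.7 to 137.8 TPM in the MLL1-KO libraries, where WNT5B and WNT9A made up most of it and WNT5A under 1%.

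Summed over the 17 WNT genes in the table, ligand RNA was 55.6 and 58.5 TPM in parental cells, 67.0 to 84.4 TPM in the SAP30-KO libraries, 69.0 to 82.3 TPM in the SIN3A+SIN3B-DKO libraries, and 117.7 to 137.8 TPM in the MLL1-KO libraries. WNT5A made up 4.56% and 4.99% of it in parental cells, 12.3% to 16.4% in the SAP30-KO libraries, 9.78% to 13.6% in the SIN3A+SIN3B-DKO libraries, and 0.169% to 0.989% in the MLL1-KO libraries. The ratio of WNT5B to WNT5A was 6.29 and 7.21 in parental cells, and every SAP30-KO and SIN3A+SIN3B-DKO library had a lower ratio, between 1.72 and 2.82. In the MLL1-KO libraries it was 244 and 338 for MLL1-KO1 and 71.9 and 46.7 for MLL1-KO2, with few WNT5A reads in the denominator. WNT5B RNA was above WNT5A RNA in all 14 libraries.

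Of the 3 Frizzled receptors, FZD8 was higher than parental in all 6 lines, by 1.55-fold to 4.71-fold, whereas FZD2 and FZD7 passed the threshold in none. FZD8 lies at chr10:35927175-35931224 (minus strand, GRCh37), FZD2 at chr17:42634852-42638630 (plus strand), and FZD7 at chr2:202898578-202903164 (plus strand).

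FZD8 was at 21.0 TPM in both parental libraries. It was 57.7 and 53.1 TPM in SAP30-KO1, 65.6 and 62.3 TPM in SAP30-KO2, 40.8 and 45.3 TPM in SIN3A+SIN3B-DKO1, and 32.2 and 33.5 TPM in SIN3A+SIN3B-DKO2. It was 80.6 and 79.7 TPM in MLL1-KO1 and 98.8 and 102 TPM in MLL1-KO2. All 12 edited libraries were above the parental pair, with the MLL1-KO libraries highest and SIN3A+SIN3B-DKO2 lowest. The log2 changes were 1.38 and 1.59 in the SAP30-KO lines, 1.02 and 0.64 in the SIN3A+SIN3B-DKO lines, and 1.91 and 2.23 in the MLL1-KO lines (SE 0.06 each), with adjusted p-values between 1.28e-10 and 6.28e-06. The value of SIN3A+SIN3B-DKO2 was close to the fold minimum, and with the median of its chromosome neighbours subtracted it was 0.58 and no longer called. The microRNA gene MIR4683 lies on the same strand in exonic sequence of FZD8, and its own row, 74.0 and 117 TPM in parental cells and 112 to 363 TPM in the edited lines, rests on 42 to 214 reads whose origin from either gene cannot be told apart.

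FZD2 was at 71.6 and 69.4 TPM in parental cells and 69.4 to 107 TPM in the edited lines. Its largest change was 0.52 (SE 0.06, adjusted p = 2.85e-05) in SAP30-KO2, a ratio of 1.44, and without SAP30-KO2 replicate 2 it was 0.60 and was called. In the MLL1-KO lines FZD2 changed by 0.03 and 0.23 while the 51 genes around it had medians of -0.44 and -0.35. FZD7, a receptor known from mammary stem cells and basal-like tumors, was at 33.4 and 31.7 TPM in parental cells, 32.4 to 36.1 TPM in the SAP30-KO and SIN3A+SIN3B-DKO libraries, and 22.2 to 28.5 TPM in the MLL1-KO libraries. All 4 MLL1-KO libraries were below both parental libraries, but the ratios of 0.716 and 0.854 did not reach the fold minimum (adjusted p = 8.93e-05 and 0.0115). Of the summed RNA of the 8 FZD genes in the table, FZD8 made up 8.34% and 8.55% in parental cells, 12.1% to 18.7% in the SAP30-KO and SIN3A+SIN3B-DKO libraries, and 28.2% to 30.9% in the MLL1-KO libraries. FZD2 made up 24.8% to 30.7% of that sum in every library.

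**Figure D3:**
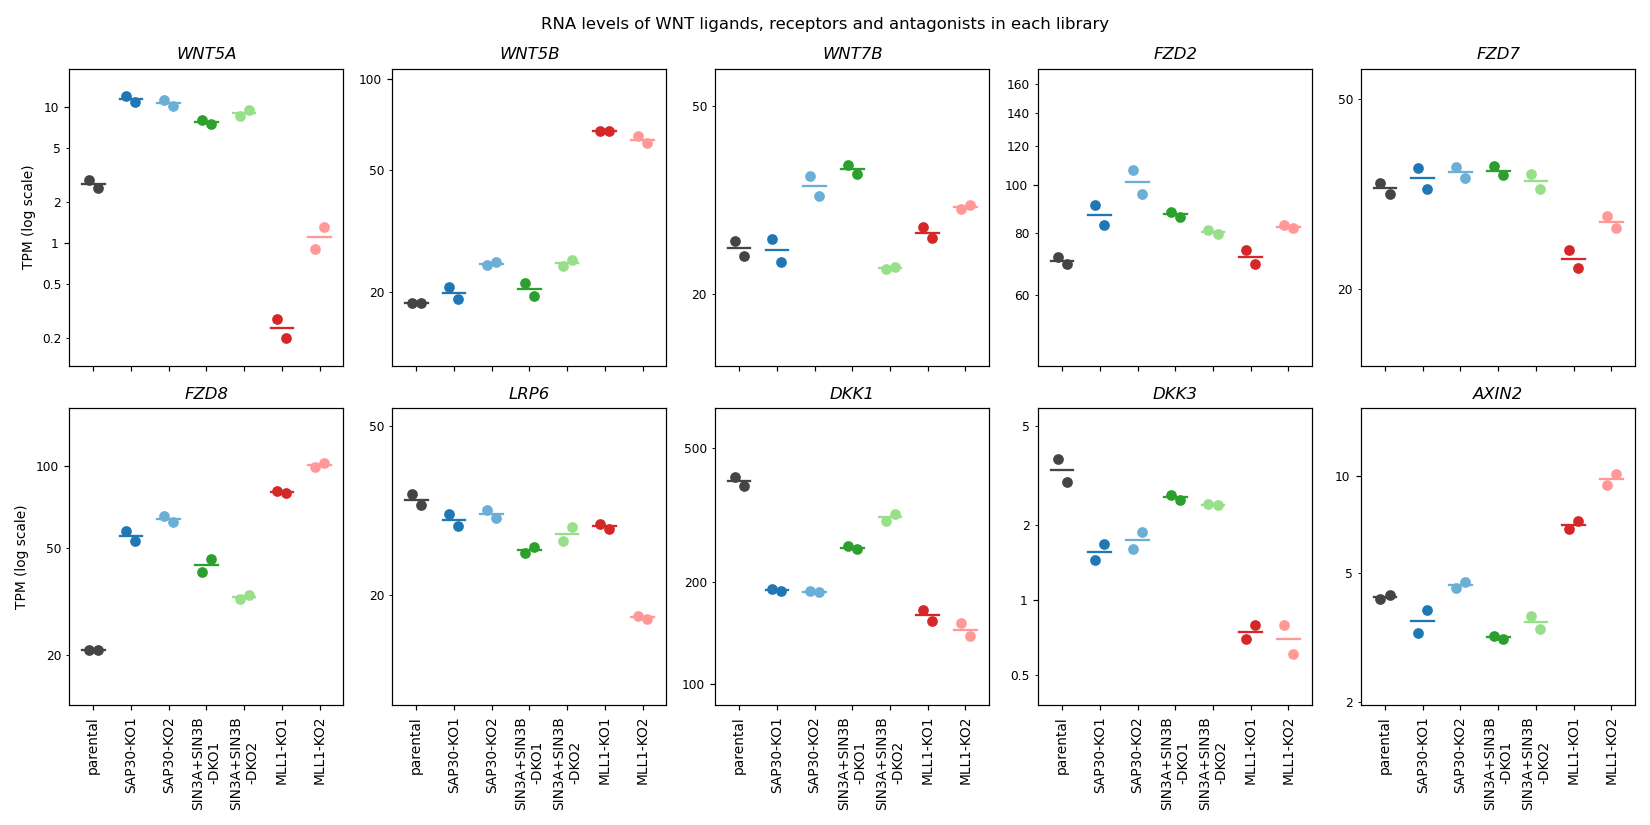
TPM (vertical axes, log scale, a separate range for each gene) of the 10 genes in the 7 conditions; each point is a library and each line the mean of the 2 libraries. Libraries of a condition lay close together for most genes, and the MLL1-KO libraries were the extreme ones for WNT5A, WNT5B, FZD8, DKK1, DKK3, and AXIN2.

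LRP6, the co-receptor at chr12:12268959-12419978 (minus strand, GRCh37), was at 34.5 and 32.6 TPM in parental cells and called in MLL1-KO2 only. It was 17.8 and 17.5 TPM in MLL1-KO2, 29.5 and 28.6 TPM in MLL1-KO1, 29.0 to 31.8 TPM in the SAP30-KO libraries, and 25.1 to 29.0 TPM in the SIN3A+SIN3B-DKO libraries. Every edited library was below the parental pair. The change in MLL1-KO2 was -0.90 (SE 0.06, adjusted p = 1.5e-07), and the other 5 lines had values of -0.39 to -0.11. The genes around LRP6 on chromosome 12 had a median change of 0.40 in MLL1-KO1 against 0.04 in MLL1-KO2, and relative to that median LRP6 in MLL1-KO1 was at -0.61 and called.

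LRP6 shares its role with LRP5, which was the more abundant of the pair in parental cells, at 174.5 and 165 TPM. LRP5 was lower in all 6 lines, with log2 changes of -1.02 and -0.97 in the SAP30-KO lines, -0.82 and -0.76 in the SIN3A+SIN3B-DKO lines, and -2.01 and -3.50 in the MLL1-KO lines; relative to its neighbours the value of SAP30-KO2 was -0.56 and not called. LRP5 fell to 42.4 and 41.1 TPM in MLL1-KO1 and to 14.6 and 14.5 TPM in MLL1-KO2. LRP6 made up 16.5% of the summed RNA of the pair in both parental libraries, 20.7% to 26.8% in the SAP30-KO and SIN3A+SIN3B-DKO libraries, 41.0% in both MLL1-KO1 libraries, and 55.1% and 54.8% in the MLL1-KO2 libraries. In MLL1-KO2, the line with the lowest LRP6 level, both co-receptors were lower and LRP6 was the more abundant.

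The antagonist DKK1 was lower in 5 of the 6 lines, at 0.365 to 0.638 times the parental level, and the related DKK3 was lower in the SAP30-KO and MLL1-KO lines. DKK1 lies at chr10:54074041-54077802 (plus strand, GRCh37) and DKK3 at chr11:11977754-12031316 (minus strand). DKK1 had the highest level of the 10 genes in every condition.

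DKK1 was at 409 and 386 TPM in parental cells (5312 and 4876 reads). It was 191 and 189 TPM in SAP30-KO1, 188 and 187 TPM in SAP30-KO2, 256 and 251 TPM in SIN3A+SIN3B-DKO1, and 303 and 319 TPM in SIN3A+SIN3B-DKO2. It was 165 and 153 TPM in MLL1-KO1 and 151 and 138 TPM in MLL1-KO2. All 12 edited libraries were below the parental pair. The log2 changes were -1.06 and -1.08 in the SAP30-KO lines, -0.65 and -0.35 in the SIN3A+SIN3B-DKO lines, and -1.32 and -1.46 in the MLL1-KO lines (SE 0.05 each), with adjusted p-values between 1.09e-09 and 0.00015. The value of SIN3A+SIN3B-DKO2, a ratio of 0.782, missed the fold minimum and not the p threshold. Set against the summed WNT ligand RNA, DKK1 was 7.001 and 6.93 times as abundant in parental cells, 2.22 to 2.82 times in the SAP30-KO libraries, 3.11 to 4.504 times in the SIN3A+SIN3B-DKO libraries, and 1.04 to 1.32 times in the MLL1-KO libraries.

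DKK3, a divergent family member that does not act on LRP5 and LRP6 as DKK1 does, was at 3.67 and 2.96 TPM in parental cells on 79 and 62 reads. It was 1.44 and 1.68 TPM in SAP30-KO1, 1.601 and 1.88 TPM in SAP30-KO2, 2.39 to 2.64 TPM in the SIN3A+SIN3B-DKO libraries, and 0.605 to 0.791 TPM in the MLL1-KO libraries on 13 to 19 reads. All 12 edited libraries were below the parental pair. The log2 changes were -0.89 and -0.77 in the SAP30-KO lines (adjusted p = 0.000466 and 0.00123) and -1.61 and -1.67 in the MLL1-KO lines (adjusted p = 3.29e-06 and 2.21e-06), with an SE of 0.15. In the SIN3A+SIN3B-DKO lines they were -0.30 and -0.39 and not called. DKK3 overlaps exons of USP47 on the opposite strand, which was at 37.1 to 48.7 TPM, and the sources used here do not say whether strand was used in counting, so reads of the 2 genes may be mixed.

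AXIN2, at chr17:63524681-63557766 (minus strand, GRCh37), was higher in both MLL1-KO lines, by 1.599-fold and 2.17-fold. It was 4.14 and 4.28 TPM in parental cells, 6.84 and 7.24 TPM in MLL1-KO1, 9.35 and 10.1 TPM in MLL1-KO2, and 3.12 to 4.67 TPM in the other 8 edited libraries. The 4 MLL1-KO libraries were above the other 10. The changes were 0.68 (SE 0.10, adjusted p = 0.000116) and 1.12 (SE 0.10, adjusted p = 2.02e-06), and the other 4 lines had values of -0.36 to 0.11, none called. The 51 genes around AXIN2 had medians of -0.36 to -0.47 in all 6 lines, so relative to its neighbours AXIN2 was at 1.15 and 1.55 in MLL1-KO1 and MLL1-KO2, and the negative values of SAP30-KO1 and both SIN3A+SIN3B-DKO lines changed sign without being called.

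**Figure D4:**
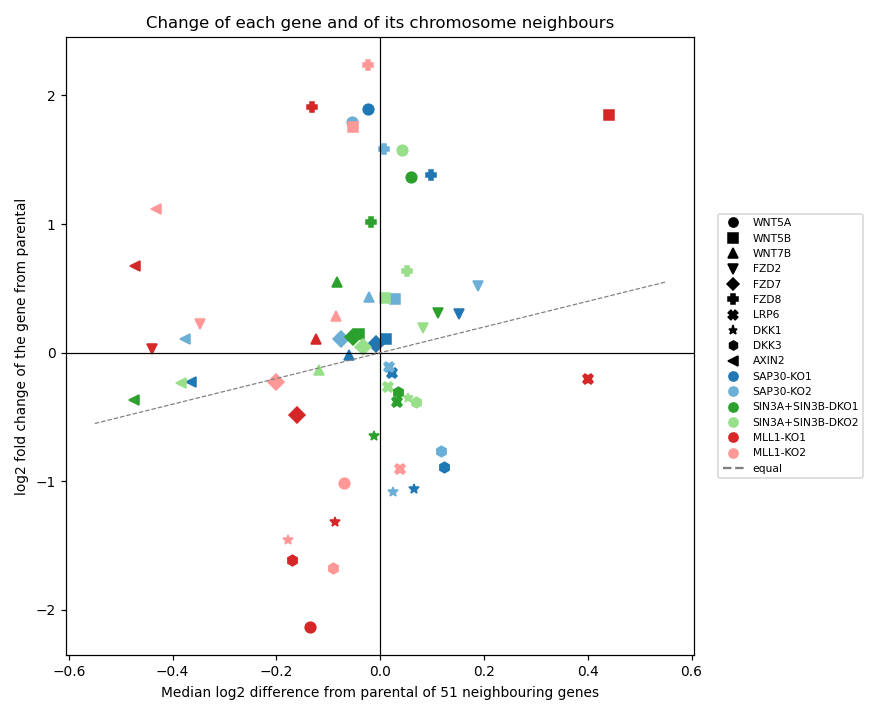
Log2 fold change from parental cells of each gene in each line (vertical axis) against the median log2 difference of the 51 genes around it on its chromosome (horizontal axis), with a dashed line where they are equal. Neighbour medians lay between -0.20 and 0.19 except for AXIN2 in all 6 lines, WNT5B and LRP6 in MLL1-KO1, and FZD2 in both MLL1-KO lines.

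Lines made against the same gene were then compared directly. Between SAP30-KO1 and SAP30-KO2 0 members were called by limma or by voom, against 0.148% of all genes tested, 0.0739% higher and 0.0739% lower. At an unadjusted p under 0.05 there were 5, and of these WNT7B differed at an adjusted p of 0.0277, with a log2 difference of -0.45. Between SIN3A+SIN3B-DKO1 and SIN3A+SIN3B-DKO2 the 1 member called was WNT7B (2.23% of all genes, 1.22% higher and 1.01% lower), 1.61-fold higher in SIN3A+SIN3B-DKO1 with a log2 difference of 0.68 (SE 0.07, adjusted p = 0.000155). With only the libraries compared in the fit, the adjusted p of that difference was 0.0525. Between MLL1-KO1 and MLL1-KO2 2 members were called (10.4% of all genes, 3.27% higher and 7.15% lower), WNT5A lower in MLL1-KO1 with a log2 difference of -1.11 (SE 0.14, adjusted p = 8.35e-05) and LRP6 higher in MLL1-KO1 by 0.70 (SE 0.06, adjusted p = 4.3e-06). The LRP6 difference was 0.34 and no longer called relative to its chromosome neighbours.

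The genotypes were compared through the means of their lines, which leaves parental libraries out of the difference. The p-values of genotype comparisons rest on the spread between libraries of a line, and leave out the spread between lines. Between the SAP30-KO and SIN3A+SIN3B-DKO lines the 1 member called was FZD8 (7.47% of all genes, 4.22% higher and 3.25% lower), higher in the SAP30-KO lines by 0.66 (SE 0.04, adjusted p = 3.65e-07). DKK1 was lower there, with a difference of -0.57 (SE 0.03, adjusted p = 3.38e-07), a ratio of 0.673 just short of the fold minimum, and it was called at -0.59 without SIN3A+SIN3B-DKO2 replicate 1. WNT5A was 0.38 higher in the SAP30-KO lines (SE 0.10, adjusted p = 0.00789), which the fold minimum left uncalled.

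Between the MLL1-KO and SAP30-KO lines 5 members were called (19.8% of all genes, 6.34% higher and 13.5% lower). WNT5A was lower in the MLL1-KO lines, with a log2 difference of -3.42 (SE 0.10, adjusted p = 1.71e-10). WNT5B was higher by 1.54 (SE 0.04, adjusted p = 1.39e-10) and AXIN2 by 0.95 (SE 0.07, adjusted p = 3.27e-07). DKK3 was lower, at -0.82 (SE 0.10, adjusted p = 3.48e-05), a call that was lost at -0.49 with quantile normalization and at -0.56 relative to its neighbours. FZD8 was higher by 0.59 (SE 0.04, adjusted p = 2.21e-07), just past the fold minimum, and it was not called at 0.56 without SAP30-KO1 replicate 2, 0.57 without SAP30-KO2 replicate 2, or 0.58 without MLL1-KO2 replicate 2. The differences of DKK1, -0.31, and FZD7, -0.44, were under the fold minimum.

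Between the MLL1-KO and SIN3A+SIN3B-DKO lines 6 members were called (19.9% of all genes, 6.91% higher and 13% lower). WNT5A was lower in the MLL1-KO lines, at -3.04 (SE 0.10), as were DKK3, at -1.30 (SE 0.10), and DKK1, at -0.88 (SE 0.03). WNT5B was higher by 1.51 (SE 0.04), FZD8 by 1.25 (SE 0.04), and AXIN2 by 1.20 (SE 0.07). The adjusted p-values of these 6 differences were between 1.5e-10 and 7.9e-07, and WNT7B, FZD2, FZD7, and LRP6 had differences of -0.44 to -0.01.

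The members were set beside the rest of the pathway in 8 lists of 98 genes, of which 89 were in the table and 59, the 10 members included, passed the filter. Of the other 49, 8 were called in SAP30-KO1, 10 in SAP30-KO2, 11 in SIN3A+SIN3B-DKO1, 8 in SIN3A+SIN3B-DKO2, and 19 in each MLL1-KO line, which is 16.3%, 20.4%, 22.4%, 16.3%, 38.8%, and 38.8% of them, beside 15.7%, 15.6%, 16.4%, 13.6%, 23.2%, and 25.2% of all genes tested. Their median change was between -0.10 and 0.01 in the 6 lines.

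Of 19 WNT ligand genes listed, 6 were tested, and the 3 that are not members also moved. WNT9A was at 2.13 and 1.96 TPM in parental cells and 26.6 and 20.9 TPM in MLL1-KO1 and 34.5 and 33.2 TPM in MLL1-KO2, a log2 change of 3.24 and 3.76. It was lower in SAP30-KO1, at -0.97, and in both SIN3A+SIN3B-DKO lines, at -0.84 and -1.26, although the call in SIN3A+SIN3B-DKO1 was lost at -0.67 without SIN3A+SIN3B-DKO1 replicate 1 and at -0.79 without parental replicate 1. WNT3, a ligand of the beta-catenin branch, rose in the SAP30-KO lines by 0.74 and 0.69 and in the SIN3A+SIN3B-DKO lines by 0.86 and 0.74, and fell in MLL1-KO1 by 1.22, while in MLL1-KO2 it was at -0.16 and not called. The call in SAP30-KO2 was lost at 0.53 relative to its neighbours. WNT10B fell by 1.64 and 1.63 in the MLL1-KO lines. Of 3 genes of ligand secretion and release, 2 were tested, and 1 was called higher in SAP30-KO2 and in MLL1-KO1.

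Of 18 receptor and co-receptor genes, 14 were tested: 2 and 3 were called in the SAP30-KO lines, 4 and 2 in the SIN3A+SIN3B-DKO lines, and 6 and 8 in the MLL1-KO lines. These were 14.3%, 21.4%, 28.6%, 14.3%, 42.9%, and 57.1% of the 14, against 15.7%, 15.6%, 16.4%, 13.6%, 23.2%, and 25.2% of all genes. ROR1, a receptor of WNT5A, was at 32.8 and 29.2 TPM in parental cells, 14.6 and 15.3 TPM in MLL1-KO1, and 4.78 and 5.53 TPM in MLL1-KO2, log2 changes of -1.02 and -2.48. It was also called lower in SIN3A+SIN3B-DKO1, at -0.67, a call lost at -0.58 relative to its neighbours. FZD1 was higher in the MLL1-KO lines by 0.65 and 0.82, and it was also called higher in SAP30-KO2, by 0.66. In SAP30-KO1 it was at 0.56 and not called, though voom called it at 0.59. FZD3, at most 1.72 TPM in any library, was lower in the MLL1-KO lines at -0.82 and -1.09. Its MLL1-KO1 call was lost at -0.39 after quantile normalization and at -0.52 relative to its neighbours.

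Of 16 antagonist and antagonist receptor genes, only DKK1, DKK3, and KREMEN1 passed the filter. KREMEN1, the receptor that DKK1 uses to clear LRP6 from the surface, was at 2.86 and 2.67 TPM in parental cells and under 1 TPM in all 12 edited libraries, at 0.118 to 0.762 TPM. It was called lower in all 6 lines, with log2 changes of -1.55 to -2.37. KREMEN1 passed the filter through the parental libraries alone, so it was tested only because its parental level was high. It had 154 and 140 reads in parental cells and 6 to 12 in the MLL1-KO libraries.

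Of 9 genes of the R-spondin axis, which controls the turnover of FZD and LRP proteins at the cell surface, 5 were tested. RNF43, a ubiquitin ligase that removes FZD receptors, was at 0.244 and 0.219 TPM in parental cells and between 0.683 and 3.10 TPM in the edited lines. It passed the filter through edited libraries alone, with 8 and 7 parental reads. It was called higher in all 6 lines, by 2.20 and 2.06 in the SIN3A+SIN3B-DKO lines, 2.04 and 2.25 in the MLL1-KO lines, and 0.83 and 0.75 in the SAP30-KO lines, where the calls were lost with 1 added to the TPM. LGR6, an R-spondin receptor, was at 0.726 and 0.863 TPM in parental cells and 16.5 to 37.1 TPM in the MLL1-KO libraries (log2 changes 3.79 and 4.81). It was also called higher in SAP30-KO2, by 1.25, and was at 0.39 and not called in SAP30-KO1. In the SIN3A+SIN3B-DKO libraries it was at 0.0653 to 0.237 TPM (log2 changes -0.96 and -1.11), on 2 to 7 reads against 19 and 22 in parental cells. LGR6 passed the filter through SAP30-KO and MLL1-KO libraries alone. LGR5 was called lower in the SIN3A+SIN3B-DKO lines, at -0.95 and -1.36, and in the MLL1-KO lines. It reached 1 TPM in the parental libraries alone, on 23 and 24 reads, and had 2 to 9 reads in the SIN3A+SIN3B-DKO libraries and 0 to 2 in the MLL1-KO libraries, so no fold is given for the latter. LGR4, the most abundant of these receptors, fell by 1.09 and 1.02 in the MLL1-KO lines, from 98.3 and 95.4 TPM to 44.2 to 47.8 TPM.

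Of 12 cytoplasmic transducers tested, limma called 0 in the SAP30-KO and SIN3A+SIN3B-DKO lines, where 4 to 5 had an unadjusted p under 0.05. Of all genes tested, 13.6% to 16.4% were called in those lines. In each MLL1-KO line 1 transducer (8.33%), DVL1, was called higher, by 0.67 and 0.79, against 23.2% and 25.2% of all genes called. Of 8 TCF/LEF factors and coactivators, TCF7L1 was lower in both SAP30-KO and both SIN3A+SIN3B-DKO lines, with changes of -0.65 to -1.79. The smallest, in SAP30-KO2, lost its call at -0.59 without parental replicate 1 and at -0.57 with 1 added to the TPM. TCF7L1 was also called lower in MLL1-KO1, at -0.90. In MLL1-KO2 it was at -0.56 and not called, though voom called it at -0.60. BCL9L was lower in both SAP30-KO lines, at -0.75 and -0.61, but relative to its chromosome neighbours it was at 0.08 and 0.20, and the call in SAP30-KO2 was lost at -0.56 without parental replicate 1 or SAP30-KO2 replicate 2. Of 9 beta-catenin targets tested, AXIN2 included, 3 were higher and 1 lower in MLL1-KO1 and 5 were higher and none lower in MLL1-KO2, which is 44.4% and 55.6% of them against 23.2% and 25.2% of all genes, with medians of 0.54 and 0.73 against -0.09 and -0.04 over all genes tested. Beside AXIN2, CD44 rose by 0.73 and 1.08 and TNFRSF19 by 0.83 and 0.77 in these lines. In the SAP30-KO and SIN3A+SIN3B-DKO lines at most 1 of the 9 (11.1%) was called, against 13.6% to 16.4% of all genes.

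**Figure D5:**
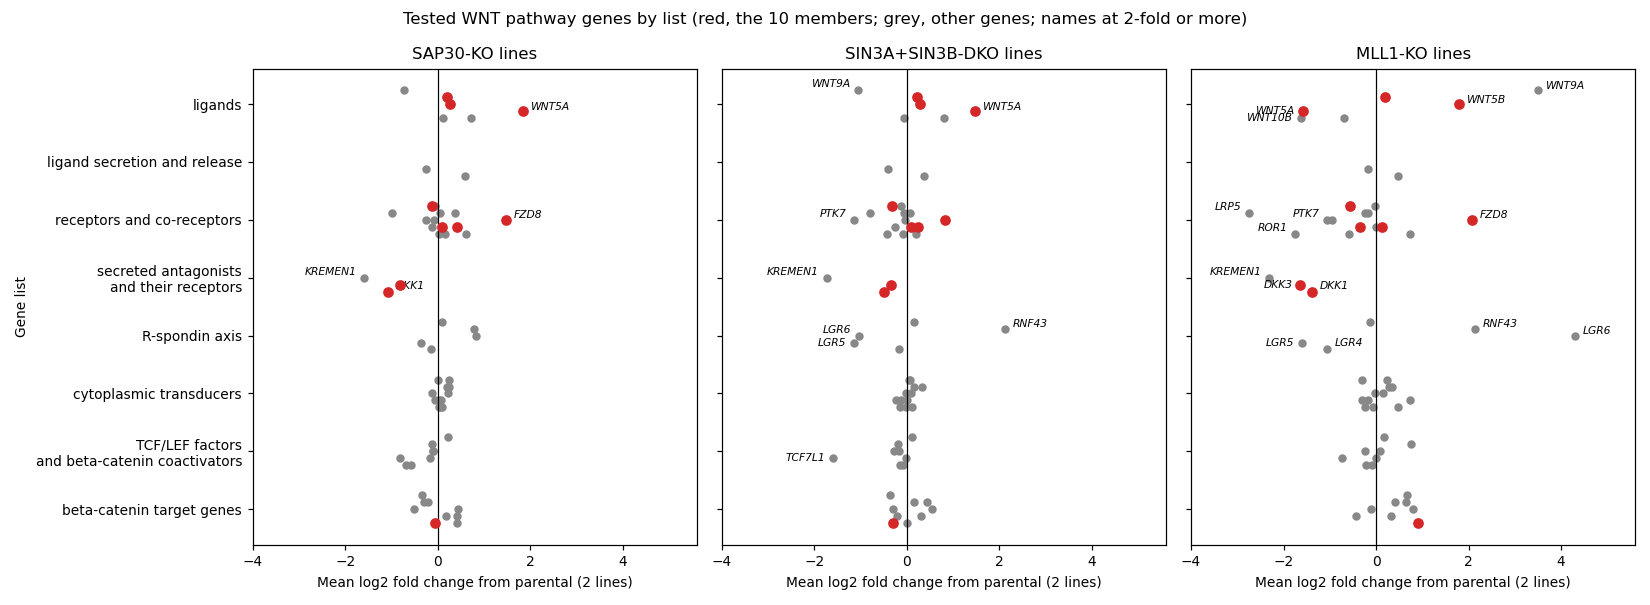
Mean log2 fold change from parental cells over the 2 lines of each genotype (horizontal axes) of the 59 tested pathway genes, grouped by list (vertical axis); the 10 members are red, other genes grey, and genes with a mean change of at least 1 are named. The genes farthest from 0 were LGR6 and WNT9A in the MLL1-KO lines.

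Over the 7 condition means of log2(TPM + 0.5), 6 members ranged over at least 1 log2 unit, and the genes with the most similar pattern among the 3616 such genes were listed for them. WNT5A was most like C7orf31 (Pearson r = 0.9989) and PLEKHA8 (r = 0.9956), and WNT5B was most like LOC100506314 (r = 0.9907) and SNAI2 (r = 0.9899). FZD8 was most like TFAP2C (r = 0.9920) and STX1A (r = 0.9912), and DKK1 was most like TNFSF18 (r = 0.9885) and PLK2 (r = 0.9869). DKK3 was most like TOX (r = 0.9952) and KLHL29 (r = 0.9951), and AXIN2 was most like ARHGAP22 (r = 0.9878) and ARMC5 (r = 0.9847). With 7 points that share the same libraries, and the best of many genes chosen, these values describe the patterns and carry no test.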

How the data were processed

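RNA-Seq of 14 MDA-MB-231 libraries was used, 2 for each of 7 conditions grouped by the submitters' labels. The authors isolated total RNA, prepared libraries with the KAPA mRNA Hyper Prep kit, and sequenced them on a NextSeq instrument. The submitters' processing notes name FastQC 0.11.2, TopHat, featureCounts, and the build hg19. The values deposited by the authors are named RPKM but each library sums to 1000000, so they were treated as TPM. TPM share a fixed total, so a rise of some genes lowers the others. Whole reads were recovered for 18519 of 18519 genes above 0 (100% within 0.02 reads).

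Values were log2-transformed after adding 0.5, genes with at least 1 TPM in at least 2 libraries were kept, and 1 limma model (version 3.58.1 in R 4.3.3, trend on) with 7 condition means was fitted to 13540 genes (7 residual and 3.6 prior degrees of freedom). All p-values are two-sided and adjusted by Benjamini-Hochberg over all genes tested. The test had been planned for RPKM and suits both units. It was tested on simulated data. The study refers to earlier work for its RNA-Seq analysis. The genes and lists were chosen with earlier results of these data known. Positions are those of the GENCODE v44 annotation on GRCh37, matched by symbol; 89.7% of genes tested had a position, and the neighbours' median is taken over a window of 51 tested genes in chromosome order that includes the gene itself. Pathway genes named beside the members are, for each list and genotype, up to 3 in each direction with the largest mean change among those called in both lines. WNT3, WNT9A, TCF7L1, FZD1, ROR1, and LGR6 are also described in other lines, chosen after their values were seen. A pattern like that of a member was sought among genes ranging over at least 1 log2 unit. Same-numbered libraries did not deviate together (correlations of -0.07 to 0.08 over 21 pairs of conditions). Replicates differed by more than sampling noise (chi-square per degree of freedom 1.46 to 7.66). Alternatives were other pseudocounts, filters, scalings, fold minimums, a replicate block, voom on the recovered reads, the compared libraries alone, subtraction of the neighbours' median, and leaving out each library. Of the gene symbols, 28 appear as dates and were left so. Python 3.11.15 was used for tables and figures.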

Additional observations from a re-analysis of the deposited data

Results flagged for a closer look

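Differences between lines or genotypes that passed the direct test were seen for 8 of the 10 genes. In the single comparisons 0.148% to 19.9% of all genes tested were called. The share of all genes called in any of them was not computed, so the count of 8 has no background beside it. The test between genotypes leaves out the spread between lines. Within a genotype, WNT7B differed by 0.68 between SIN3A+SIN3B-DKO1 and SIN3A+SIN3B-DKO2, and WNT5A by -1.11 and LRP6 by 0.70 between MLL1-KO1 and MLL1-KO2, on the log2 scale. The cause was not tested. FZD8 was 0.66 higher in the SAP30-KO than in the SIN3A+SIN3B-DKO lines.

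In the MLL1-KO lines against the SAP30-KO lines the log2 differences were -3.42 for WNT5A, 1.54 for WNT5B, 0.59 for FZD8, -0.82 for DKK3, and 0.95 for AXIN2. Against the SIN3A+SIN3B-DKO lines they were -3.04 for WNT5A, 1.51 for WNT5B, 1.25 for FZD8, -0.88 for DKK1, -1.30 for DKK3, and 1.20 for AXIN2. For WNT5A the changes from parental cells had opposite signs in these genotypes, and MLL RNA was itself lower than parental in the SAP30-KO lines, with log2 changes of -0.95 and -0.65. These MLL values were not set against those of its chromosome neighbours. Conditions of 2 libraries were not searched for outlying libraries.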

How the results depend on the processing

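Of 3000 member values recomputed under 11 alternatives and with each of the 14 libraries left out, 2928 stayed called or uncalled as before. Of the rest, 21 lost a call and 51 gained one. No called value reversed, and 45 values that were called in neither fit changed sign. Most changes came from the fold minimum: 41 of 120 values without it and 13 of 120 with a minimum of 2. The other 9 alternatives changed 12 of 1080 values, and leaving out a library changed 6 of 1680. The 2 pseudocounts, no filter, and the replicate block changed no member's call.

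Without the fold minimum the members called were 6 and 7 in the SAP30-KO lines and 7 in each SIN3A+SIN3B-DKO line. In the MLL1-KO lines they were 8 and 10. Within genotypes they were 1 between the SAP30-KO lines, 4 between the SIN3A+SIN3B-DKO lines, and 7 between the MLL1-KO lines. Between genotypes they were 7 for SAP30-KO and SIN3A+SIN3B-DKO, and 9 for MLL1-KO against each of the others. Pathway genes called were 32, 35, 38, 33, 45, and 45 of 59 in the 6 lines. The shares of all genes then called were 51%, 51.7%, 56%, 49.6%, 60.5%, and 64.2% in the 6 lines, 0.524%, 12.5%, and 42.1% within the genotypes, and 48.6% and 67.8% between them. With a minimum of 2, members called were 3 in each SAP30-KO line, 2 and 1 in the SIN3A+SIN3B-DKO lines, and 5 and 6 in the MLL1-KO lines. Within genotypes they were 0 between the SAP30-KO lines, 0 between the SIN3A+SIN3B-DKO lines, and 1 between the MLL1-KO lines. Between genotypes they were 0 for SAP30-KO and SIN3A+SIN3B-DKO, 2 for MLL1-KO and SAP30-KO, and 5 for MLL1-KO and SIN3A+SIN3B-DKO. Pathway genes called were 5, 5, 6, 7, 15, and 19 of 59 in the 6 lines. Of all genes, 5.2% to 6.06% were called in the SAP30-KO and SIN3A+SIN3B-DKO lines, and 10.9% and 11.8% in the MLL1-KO lines. The shares were 0.0443%, 0.82%, and 3.16% within genotypes, and 2.13%, 8.58%, and 8.85% between them. Between SAP30-KO and SIN3A+SIN3B-DKO, median ratio scaling, voom, and the neighbours' median each gave 2 members, and leaving out a library gave 1 to 2. With only the compared libraries, 0 members were called between the SIN3A+SIN3B-DKO lines. With the neighbours' median subtracted, 1 was called in SIN3A+SIN3B-DKO2 and 1 between the MLL1-KO lines, and BCL9L reversed to 0.0822 and 0.204 in the SAP30-KO lines; these shifts follow from the subtraction.

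The labels number the libraries but do not pair them, and same-numbered libraries correlated at 0.01 on average. With the replicate block the members called were 4 and 4 in the SAP30-KO lines, 3 and 2 in the SIN3A+SIN3B-DKO lines, and 6 and 7 in the MLL1-KO lines, as without it.

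Quantile normalization moved the median of all genes by 0.145 in MLL1-KO1 and by 0.109 between MLL1-KO and SAP30-KO, and median ratio scaling moved the latter by 0.102; no member's called direction flipped. With 2 libraries a condition, the spread was pooled over conditions, and in each fit that left 1 out the remaining library was assumed to vary like the others. WNT5A and DKK3 in the MLL1-KO lines rest on 10 to 59 and 13 to 19 reads, and some named pathway genes on fewer. No explanation for any of these patterns was tested.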
